A study of Camelina sativa with 41 samples.

Results

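Seeds of Camelina sativa cultivar Suneson taken 5 and 8 days post-anthesis (DPA, counted from flower opening) were compared across all genes. Camelina belongs to the mustard family, is grown for its seed oil, and is hexaploid. The comparison was chosen by sample age alone and uses 6 of the 9 seed RNA libraries of the study, 3 biological replicates at each age, each prepared from a weighed amount of seed. Both ages are labelled wild type (WT), and plants grew in a greenhouse at 22 °C in long days. The libraries at 11 DPA entered only the estimate of spread, the filter on low counts and the scaling between libraries. The labels give the tissue as seeds, while the growth notes speak of seedpods, so the amount of pod wall in the material is not known. Embryo, endosperm and seed coat were not separated. In whole seeds, a change in the number of cells of a type and a change in RNA per cell cannot be told apart.

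In mustard family seeds, fertilisation starts a phase of growth in which the endosperm expands and the embryo takes shape by cell division. A filling phase follows, in which the embryo lays down oil and storage protein and the seed coat differentiates. In Arabidopsis, transcription factors such as WRINKLED1 and LEAFY COTYLEDON1 switch on the genes of oil synthesis during filling. Control of lipid metabolism is the subject named in the title of the series. The gene IDs of the count table matched 0 of the 98741 genes in the reference table, so genes are given by ID, no ID is given a function, and the labelled tissue could not be checked against marker genes.

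The 6 libraries held 15659011 to 44164000 counts, with 5 DPA replicate 1 the smallest. Its second sequencing run was left out because that column equalled the second run of 5 DPA replicate 2 in all 89418 genes. The 5 DPA replicates were less alike than those of 8 DPA. The biological coefficient of variation (the spread of a gene's level between replicates beyond counting error) was 19.6% at 5 DPA and 9.54% at 8 DPA. After every library was thinned to the same total, replicates of 5 DPA differed in 6.45% to 8.52% of their counts and replicates of 8 DPA in 3.90% to 6.27%. Libraries of different ages differed in 16.6% to 20.9% in the 9 pairs, so every pair of unlike age lay farther apart than any pair of like age. This share is the part of the counts that would have to move to another gene to make both libraries equal.

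Single libraries stood apart within their age. In 5 DPA replicate 2, 219 tested genes were at least 4-fold above both other replicates, against 1 in replicate 1 and 10 in replicate 3. Those 219 genes took 0.665% of the counts of that library, 0.0918% and 0.106% in the other 5 DPA replicates and 0.0627% on average at 8 DPA. Being picked for a high level in a 5 DPA library favours a fall. Of the 219, 114 fell in the test across all 6 libraries, beside 17.5% of all tested genes. When 5 DPA replicate 2 was left out, 78 of the 219 fell, beside 9358 falls over all genes in that fit. That fit took in all 63017 genes of the test across 6 libraries. The median log2 change of the 219 genes was -2.67 with that library and -0.83 without it. At 8 DPA, replicate 3 lay farther along the age change than the other replicates. Across the 33920 genes whose mean reached 5 CPM (a count relative to the total of its library), the log2 difference of 8 DPA replicate 3 from replicates 1 and 2 correlated with the age change measured in libraries that it does not share, with Pearson's r of 0.50 and 0.53 and slopes of 14.4% and 16.0% of the change. For 5 DPA replicate 3 against replicates 1 and 2, r was 0.32 and 0.16, and the slopes were 9.53% and 6.02%. These correlations are across genes, which are not independent replicates. What sets these libraries apart was not tested.

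From 5 to 8 DPA, genes rose and fell in nearly equal numbers. Of 63017 genes tested, 35.6% were called by edgeR's quasi-likelihood test, with a threshold of 0.05 on the p adjusted by Benjamini-Hochberg. Genes that rose made up 18.1% and genes that fell made up 17.5%, and these directions are relative to the scaling, under which the median log2 change of all genes was -0.01. The typical called change was modest, with a median of 1.88-fold for rises and 1.995-fold for falls. Rises of at least 2-fold made up 8.43% of the tested genes and falls of that size 8.75%. Over all tested genes, 66.8% stayed within 1.5-fold of their level at 5 DPA, and the central 90% of log2 changes lay between -1.83 and 1.91.

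The called genes separated the ages library by library. Of the 22436 called genes, 99.0% had all 3 libraries of one age above all 3 of the other. The calls were made from these same values, so this share describes the called genes and is no separate test. Over all tested genes, every 8 DPA library lay above every 5 DPA library in 29.5% and below in 24.1%, so many genes without overlap were not called. Leaving out each library in turn gave 16457 to 20503 called genes. A set of 14837 genes, 66.1% of the calls, was called in the same direction in all 6 of those fits, and none of the called genes was called in the opposite direction in any of them.

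**Figure D1:**
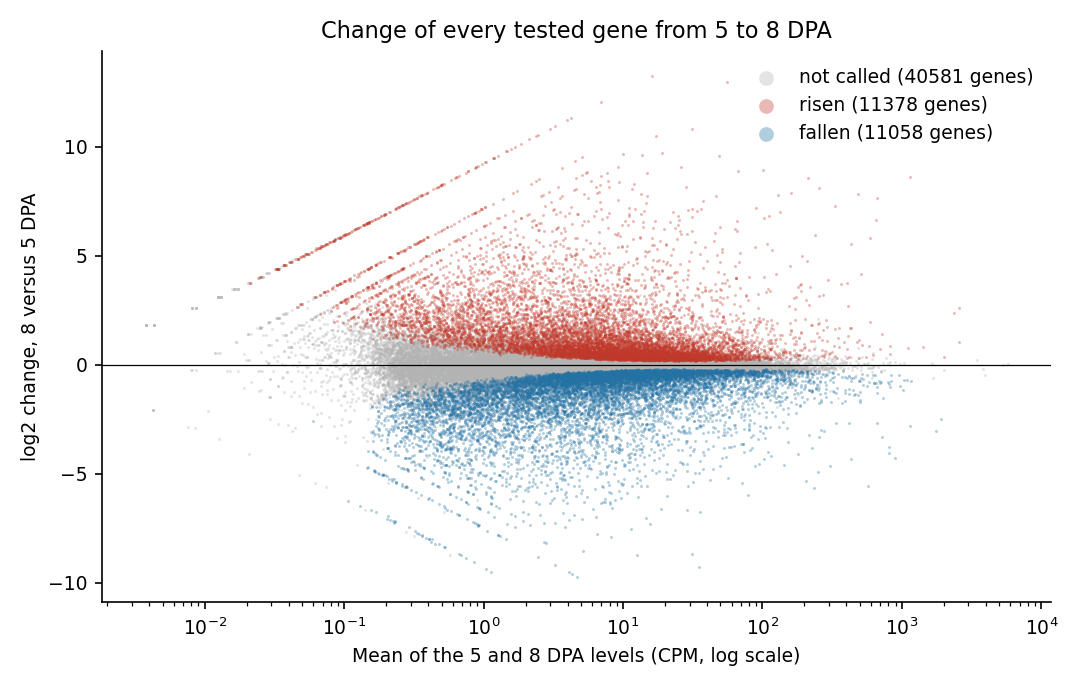
Each point is a tested gene, with the mean of its levels at 5 and 8 DPA in CPM on a log scale and its log2 change on the vertical axis. The 11378 genes that rose are red, the 11058 that fell are blue and the 40581 not called are grey; calls reach down to small changes among abundant genes and need large ones below 1 CPM, where points on slanted lines are genes with few or no counts at one age.

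The genes that rose held 12.6%, 12.4% and 13.1% of the counts in the 5 DPA replicates and 25.4%, 25.3% and 27.98% in the 8 DPA replicates. The genes that fell went from 30.4%, 30.2% and 28.9% to 16.4%, 16.5% and 14.6%. The classes were made from these same libraries, so the shares describe how much of the messenger RNA pool the called genes carry and are no test. Genes not called held 56.9% to 58.2% in every library. The genes that rose at least 2-fold were scarce at 5 DPA, with 2.59% ± 0.183 of the counts, and reached 11.4% ± 1.19 at 8 DPA, while those that fell at least 2-fold went from 12.6% ± 0.791 to 3.50% ± 0.536 (SD, n = 3 each).

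The most abundant transcripts turned over. Of the 100 genes with the highest mean CPM at 5 DPA, 57 were still among the highest 100 at 8 DPA and 43 had left. In that list of 5 DPA 57 genes fell and 8 rose, and in the list of 8 DPA 40 rose and 17 fell. Over all tested genes 17.5% fell and 18.1% rose. Among tested genes whose mean over both ages reached 100 CPM, 29.95% fell and 16.5% rose. A list taken from the top of one age favours genes that are higher at that age, so the counts describe the lists only. The share held by the most abundant genes was compared at more than one list length. In each library the 100 genes with most counts were summed, and they made up 11.1% ± 0.690 of all counts at 5 DPA against 10.6% ± 0.141 at 8 DPA (SD, n = 3; exact permutation test, two-sided, p = 0.4). The number of genes at 1 CPM or more was 50786 ± 829 at 5 DPA and 50619 ± 239 at 8 DPA (p = 0.9, exact permutation test, two-sided). With 3 against 3 libraries this test cannot go below 0.1. At that smallest p, the 1000 genes with most counts held 30.3% ± 0.729 at 5 DPA and 28.8% ± 0.287 at 8 DPA, without overlap (SD, n = 3; exact permutation test, p = 0.1). Also without overlap and at p = 0.1 by the same exact test, genes at 10 CPM or more were fewer at 5 DPA (21493 ± 253) than at 8 DPA (22173 ± 156), and genes at 100 CPM or more were more numerous at 5 DPA (1351 ± 15.6) than at 8 DPA (1292 ± 18.5).

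The largest gains in level belonged to a pair of genes with consecutive IDs, Csa09g075860 and Csa09g075850, both on the plus strand of chromosome 9. They were taken by a rule that ranks called genes without overlap between the ages by their difference in mean CPM. Csa09g075860 (deposited length 1060 bases) had 681, 531.5 and 938.5 CPM in the 5 DPA replicates and 4285, 4446 and 4635 CPM in those of 8 DPA. The lowest 8 DPA library stood several times above the highest 5 DPA library, and the log2 change was 2.59 (SE 0.21, 6.03-fold, edgeR adjusted p = 2.35e-05). Csa09g075850 (999 bases) had 739.5, 490.6 and 1011 CPM at 5 DPA and 3667, 4178 and 4070 CPM at 8 DPA, a log2 change of 2.37 (SE 0.26, 5.16-fold, edgeR adjusted p = 0.000118). Both had the same order of replicates at 5 DPA, with replicate 3 highest and replicate 2 lowest. Per kilobase of deposited length they reached 4203 and 3976 CPM at 8 DPA. At that age Csa09g075860 held 0.446% of all counts and Csa09g075850 held 0.397%. If they are near-identical copies, the authors' counting could have divided reads between them, so their separate levels are uncertain.

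The largest losses were those of Csa08g043990 and Csa16g034890, on chromosomes 8 and 16 and both on the minus strand. Csa08g043990 (1110 bases) had 3228, 3017 and 3073 CPM at 5 DPA and 433, 443 and 296 CPM at 8 DPA. The log2 change was -3.03 (SE 0.32, 8.18-fold lower, edgeR adjusted p = 9.34e-05). Csa16g034890 (1051 bases) had 3744, 3176 and 2727 CPM at 5 DPA and 671, 611 and 469 CPM at 8 DPA, a log2 change of -2.50 (SE 0.33, 5.67-fold lower, edgeR adjusted p = 0.000354). Both were among the most abundant transcripts of the younger seeds, and both were lowest in 8 DPA replicate 3. All 4 genes kept their direction and their call in the 14 alternatives tried.

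The 10 genes with the largest gains rose between 1.80-fold and 396-fold, from 4.15 to 1652 CPM at 5 DPA to 965 to 4456 CPM at 8 DPA. Together they gained 1.75% of all counts. The 10 with the largest losses fell between 5.67-fold and 46.5-fold, from 824 to 3216 CPM to 24.7 to 583 CPM, and gave up 1.54% of all counts. Ranking by difference in level means that each gain had to end, and each loss had to start, at a high level.

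**Figure D2:**
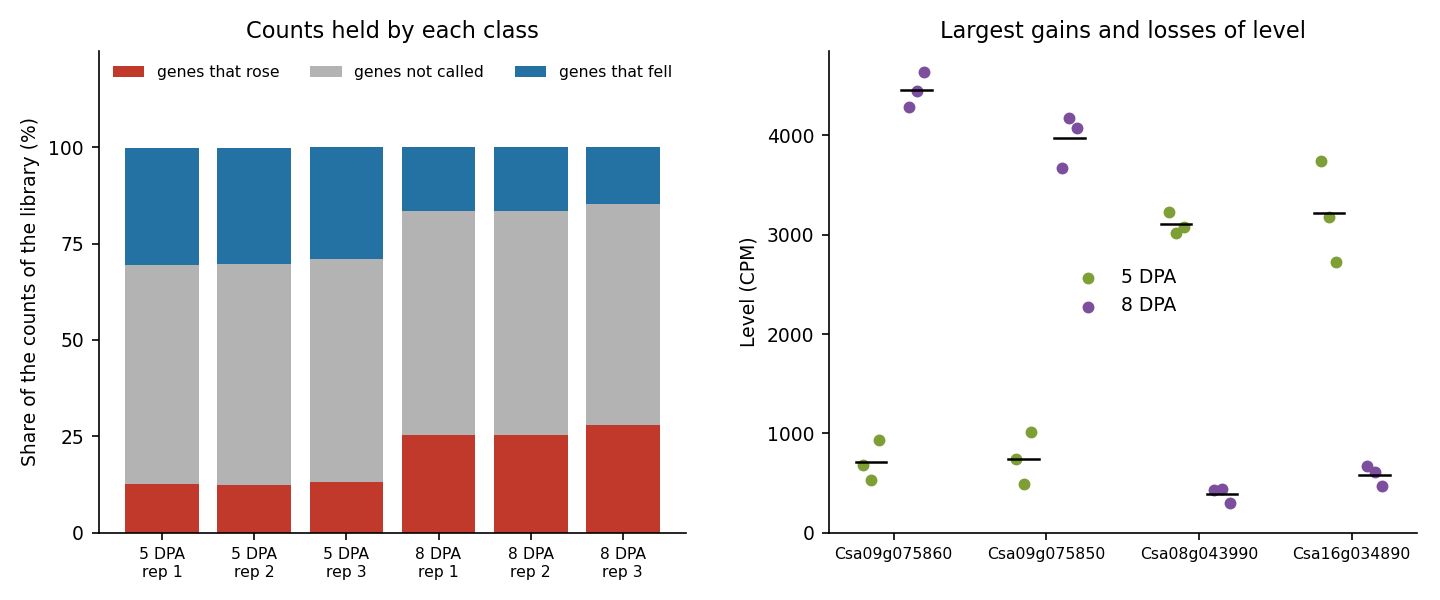
Left, stacked bars give the percent of each library's counts held by genes that rose, genes not called and genes that fell; the risen share goes from 12.4% to 13.1% at 5 DPA to 25.3% to 27.98% at 8 DPA. Right, points are the CPM of the 3 replicates of each age and black lines their means. They are shown for the 2 genes with the largest gain and the 2 with the largest loss. No 8 DPA point overlaps the 5 DPA points of its gene, as the rule that took these genes required.

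Abundant genes fell more often than they rose. Among the 1312 tested genes whose mean over both ages reached 100 CPM, 29.95% fell and 16.5% rose, against the background of 17.5% and 18.1% for all tested genes. Between 10 and 100 CPM the order was the other way, with 20.8% rising and 18.4% falling of 20771 genes. Between 1 and 10 CPM 17.05% rose and 17.6% fell of 29627 genes, and under 1 CPM 15.9% and 14.5% of 11307 genes. In absolute numbers, 539 of the genes that fell had at least 100 CPM at 5 DPA, and 333 of the genes that rose had at least 100 CPM at 8 DPA. Each direction was thus counted at the age where its genes are higher. Per library, 1351 ± 15.6 genes reached 100 CPM at 5 DPA and 1292 ± 18.5 at 8 DPA (SD, n = 3). The median change in either direction was 1.79-fold under 1 CPM, 1.26-fold between 1 and 10 CPM, 1.17-fold between 10 and 100 CPM and 1.23-fold from 100 CPM upwards. Of the 1960 tested genes with fewer than 50 counts summed over the 6 libraries, 390 rose and 146 fell, beside 18.1% and 17.5% of all tested genes. The filter on low counts also passed genes that were high at 11 DPA alone.

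Few genes went between no reads and a substantial level. A group of 36 genes had no count in any 5 DPA library and reached 1 CPM or more on average at 8 DPA, all 36 counted in each 8 DPA library and all called as risen. The reverse held for 11 genes, of which 8 were called as fallen, and none of them had more than 2.25 CPM at 5 DPA, while the highest gene of the first group reached 32.2 CPM. Both groups were picked by these same counts, which fixed the direction of any call, so the calls are no separate support. Without the cut at 1 CPM, 203 of 3372 genes counted only at 8 DPA were called as risen. Of 2706 genes counted only at 5 DPA, 32 were called as fallen. The totals 3372 and 2706 cover the whole count table, whether or not a gene passed the filter on low counts. They are therefore not comparable with the 18.1% of rises and 17.5% of falls among tested genes. That filter also used the 11 DPA libraries, so it passed genes that were high at 11 DPA alone. The depth was unlike: 3 counts over the libraries of an age correspond to 0.0303 CPM at 5 DPA and 0.0247 CPM at 8 DPA, so a gene could go unseen at 5 DPA at a slightly higher level. Intervals and limits of this kind cover counting error only.

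Gene length followed the direction of change. The deposited length had a median of 2522 bases for genes that rose, 2265 for genes not called and 2032 for genes that fell. Ordered by length in 10 classes of equal size, the share of rises climbed from 14.7% in the shortest class (132 to 929 bases) to 23.6% in the longest (5147 to 40601 bases), and the share of falls went down from 23.5% to 11.5%. The median log2 change went from -0.12 to 0.10 over the same range. The trend was also present among well measured genes: at a mean of 10 CPM or more, 33.2% of the shortest class fell and 14.3% rose, while in the longest class 9.69% fell and 25.9% rose. Genes that rose at least 2-fold had a median length of 2080 bases and those that fell at least 2-fold 1775 bases, so the order of rises and falls was the same, while both were shorter than genes not called. The climb in the share of rises did not hold at that size. Rises of at least 2-fold made up 11.8% of the shortest class and 6.47% of the longest, and falls of that size 18.0% and 4.63%. At a mean of 10 CPM or more, these shares were 7.06% and 3.44% for rises and 16.4% and 2.49% for falls.

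The length difference could be read in every library. For each library, the median log2 level relative to the mean of the 6 libraries was taken in the longest and the shortest class. The longest minus the shortest was -0.14, -0.13 and -0.02 in the 5 DPA replicates and 0.06, 0.06 and 0.16 in the 8 DPA replicates, so the ages did not overlap. In genes of at least 10 CPM the values were -0.19, -0.16 and -0.07, and 0.09, 0.08 and 0.23. At both ages replicate 3 stood farthest towards long genes, and it was also the replicate that lay farther along the age change. RNA integrity also acts on transcripts by their length, and no measure of it is given per library, so its part in the length trend was not tested. Whether the deposited length includes introns is not stated.

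**Figure D3:**
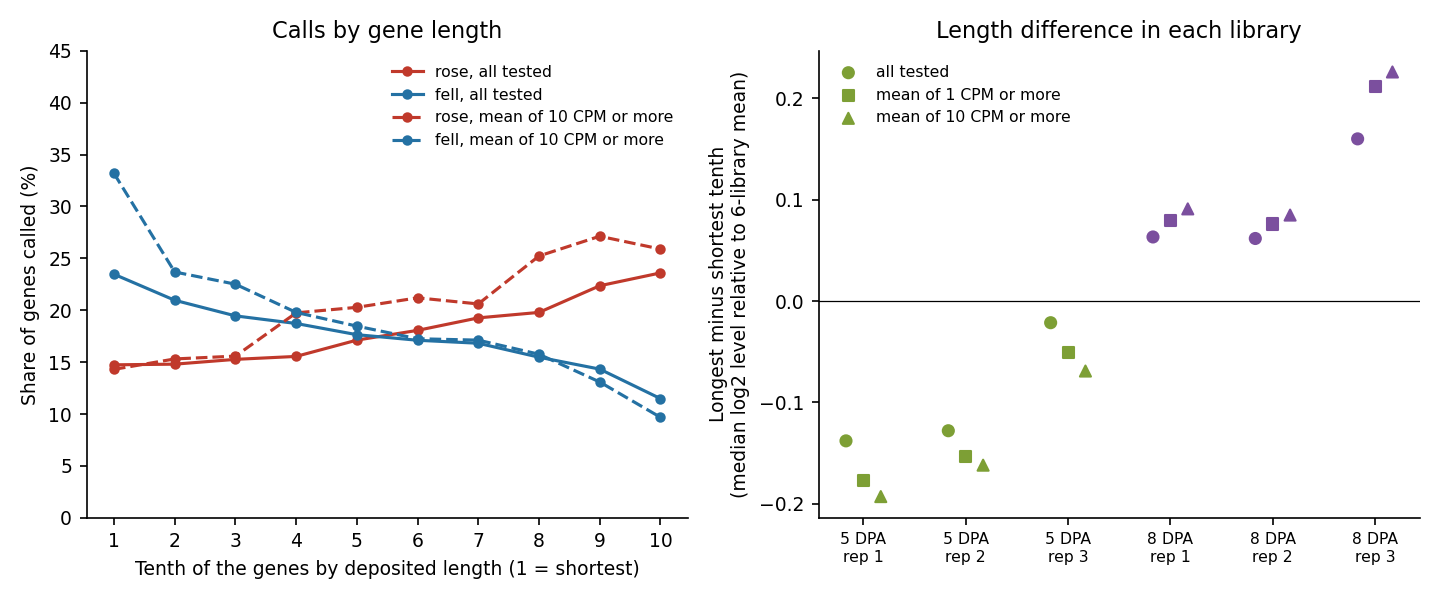
Left, the percent of genes that rose (red) or fell (blue) in each of 10 classes of genes by deposited length, for all tested genes (solid) and for those whose mean reaches 10 CPM (dashed); rises overtake falls between the shorter and the longer genes. Right, for each library, the median log2 level of the longest class minus that of the shortest, relative to the mean of the 6 libraries, with marker shapes for all tested genes and for means of 1 or 10 CPM upwards; all 3 libraries of 5 DPA are below 0 and all 3 of 8 DPA above.

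Neighbouring genes tended to move the same way. Gene IDs carry a chromosome number and a running number, which was read as an order along the chromosome. Among 6539 pairs of consecutive IDs in which both genes were called, 59.3% changed in the same direction, where the overall shares of rises and falls give 50.0%. The share was 53.7% at a distance of 2 in ID order, 48.7% at 5 and 50.2% at 200. For consecutive genes on the same strand it was 62.2% of 3384 pairs, and for those on opposite strands 56.2% of 3155 pairs. Rises and falls both took part, with 2032 pairs that rose together and 1846 that fell together. Pairs overlap and genes are not replicates, so these shares are descriptions. Tandem copies can share reads and adjacent transcripts can overlap, so neighbouring directions are not always separate measurements. Between whole chromosomes the shares were alike: 16.0% to 20.2% of the genes on each of 20 chromosomes rose and 16.2% to 19.6% fell.

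**Figure D4:**
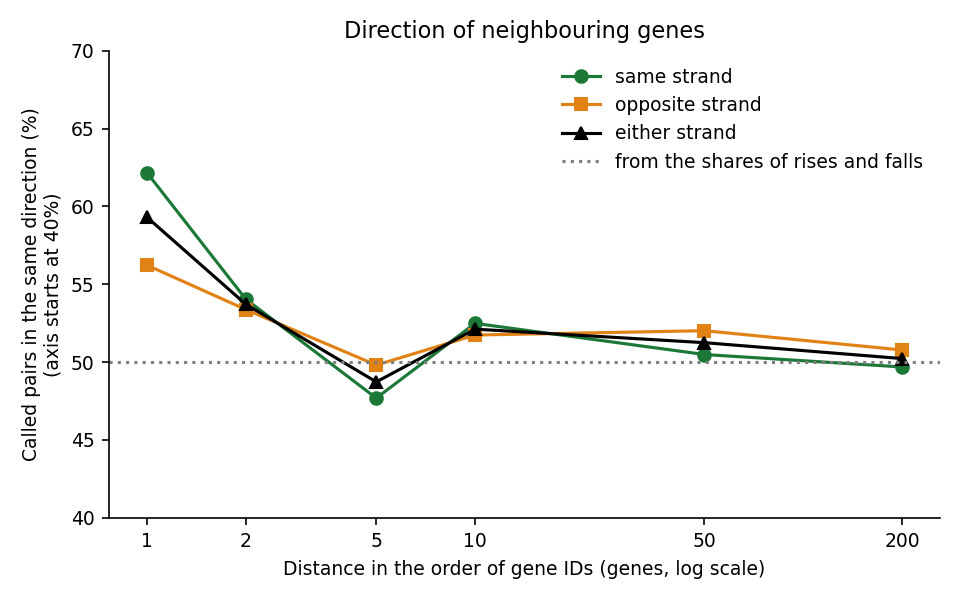
Percent of pairs of called genes that changed in the same direction, against their distance in the order of gene IDs on a log scale, for pairs on the same strand, on opposite strands and both together; the vertical axis starts at 40%. The share is highest for consecutive IDs (59.3% over both strand arrangements) and lies between 48.7% and 52.1% from a distance of 5 onwards, around the dotted line at 50.0%.

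The labels name 22 genes by ID as transcription factors whose DNA binding was assayed by DNA affinity purification sequencing, in which a tagged factor made outside the plant captures fragments of genomic DNA. Transcription factors bind short DNA sequences and set the rate at which nearby genes are copied into RNA. Of the 22 genes, 12 rose from 5 to 8 DPA and 8 were tested and not called. The remaining factors, Csa01g013850 and Csa09g088620, had no count at either age, which allows at most 0.0303 CPM at 5 DPA and 0.0247 CPM at 8 DPA. Of the 20 tested, Csa04g023980, Csa06g051300, Csa10g008930 and Csa13g019570 passed the filter on low counts only with the 11 DPA libraries included; with the 6 libraries alone, 16 factors were tested and 11 rose. The 12 rises are 60% of the 20 factors tested, beside 18.1% of all tested genes, and the median log2 change of the tested factors was 1.30 beside -0.01 for all genes. Every 8 DPA library lay above every 5 DPA library in 14 of the 20, beside 29.5% of all tested genes. With all libraries none fell by edgeR at the adjusted threshold or at an unadjusted p under 0.05, and 0 fell by DESeq2; without 5 DPA replicate 2, 1 factor fell at an unadjusted p under 0.05 and 0 at the adjusted threshold. The study may have chosen its factors from these same libraries, in which case their direction is not independent evidence.

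The steepest rises began from almost nothing. Csa02g073390 had 0, 0 and 1 counts in the 5 DPA replicates and 31, 40 and 47 in those of 8 DPA, or 0.799, 0.906 and 1.23 CPM. The log2 change by edgeR was 6.16 (SE 0.97, 71.7-fold, adjusted p = 0.00107), and 5.58 to 8.21 without single libraries. Its ratio of 8 to 5 DPA from summed counts over summed totals, another measure, was 96.4 (exact 95% counting interval 16.97 to 3840). That ratio was 58.2 without 5 DPA replicate 2. Without replicate 3, which held the 1 count, it was 17.8 with the 0 counts at 5 DPA taken as 3. Every 8 DPA library was thus well counted and the size of the rise rests on 1 read at 5 DPA. Csa04g012470 had 0.192, 0.153 and 0.363 CPM at 5 DPA and 7.97, 6.79 and 10.2 CPM at 8 DPA. All 8 DPA libraries lay far above those of 5 DPA, with a log2 change of 4.99 (SE 0.39, edgeR adjusted p = 1.8e-05), or 5.60 without 5 DPA replicate 3. Csa04g023980, tested only because of the 11 DPA libraries, stayed scarce, with 1, 1 and 0 counts and then 9, 8 and 18. The log2 change by edgeR was 3.58 (SE 0.89, adjusted p = 0.0120). Its ratio from summed counts was 14.3 (exact 95% counting interval 3.67 to 123), or 24.1 without 5 DPA replicate 1. Without 5 DPA replicate 3 that ratio was 7.93 and the call was lost (edgeR adjusted p = 0.0522).

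A second set rose from a low level to one that was well measured. Csa02g060070 went from 0.830, 1.02 and 1.13 CPM to 9.54, 8.79 and 12.0 CPM (change 3.25 on the log2 scale, SE 0.16, adjusted p = 2.71e-06 by edgeR). Csa18g003140 went from 2.17, 1.78 and 4.99 CPM to 25.4, 27.0 and 26.5 CPM (change 3.03 on the log2 scale, SE 0.30, adjusted p = 7.07e-05 by edgeR). Leaving out 5 DPA replicate 3 made that change 3.73. The 8 DPA libraries of Csa18g003140 were close together, while 5 DPA replicate 3 stood above the other replicates of its age. Csa19g036630 went from 0.319, 0.255 and 0.431 CPM to 1.88, 1.40 and 3.03 CPM (change 2.56 on the log2 scale, SE 0.55, adjusted p = 0.00600 by edgeR). Csa06g004330 went from 0.383, 0.968 and 0.453 CPM to 1.495, 1.95 and 2.38 CPM (change 1.58 on the log2 scale, SE 0.33, adjusted p = 0.00526 by edgeR), and 2.202 with the first run alone. None of these had overlapping ages.

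For Csa17g034220 and Csa06g051300 the call depended on single libraries. Csa17g034220 had 0.0639, 0.255 and 0.544 CPM at 5 DPA and 1.21, 0.747 and 1.41 CPM at 8 DPA (change 1.71 on the log2 scale, SE 0.47, adjusted p = 0.0179 by edgeR). The change was 2.50 without 5 DPA replicate 3, and the call was lost without 5 DPA replicate 2 (change 1.51, adjusted p = 0.0584), 8 DPA replicate 1 (1.67, 0.0528) or 8 DPA replicate 3 (1.53, 0.0647), with the change nearly as large each time. Csa06g051300, tested only because of the 11 DPA libraries, had 1, 0 and 6 counts at 5 DPA and 5, 17 and 22 at 8 DPA. It was the single called factor whose ages overlapped, since 5 DPA replicate 3 (0.136 CPM) stood above 8 DPA replicate 1 (0.129 CPM). Its log2 change of 2.28 (SE 0.78, edgeR adjusted p = 0.0472) was 4.03 without 5 DPA replicate 3. Without 5 DPA replicate 2 it was 1.59, and the call was lost there, without 5 DPA replicate 1 and without 8 DPA replicate 2 or 3 (adjusted p 0.0949 to 0.150). It was 1.56 with every library thinned to the smallest total, again without a call (adjusted p = 0.21), and the call was lost in 6 of the 13 alternatives that could test it.

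The remaining called factors were already present at 5 DPA and rose less than 2-fold. Csa11g015700 had 8.24, 8.25 and 8.54 CPM at 5 DPA and 16.3, 14.3 and 19.1 CPM at 8 DPA (change 0.94 on the log2 scale, SE 0.16, adjusted p = 0.00155 by edgeR). Csa11g072230 had 1.66, 1.61 and 1.22 CPM and then 2.50, 2.54 and 3.08 CPM (change 0.83 on the log2 scale, SE 0.17, adjusted p = 0.00414 by edgeR). Csa04g050690 had 20.0, 18.4 and 18.5 CPM and then 22.8, 22.2 and 22.6 CPM, a 1.16-fold change (log2 0.21, SE 0.07, edgeR adjusted p = 0.0408). Its replicates lay close together at both ages, and the call was lost in 9 of 14 alternatives, among them each fit without 1 library except that without 5 DPA replicate 1 (adjusted p 0.0879 to 0.113 in the others).

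Of the 8 factors tested and not called, Csa11g037200 had the highest level. It had 63.6, 57.6 and 58.9 CPM at 5 DPA and 68.6, 71.2 and 74.7 CPM at 8 DPA, with no overlap (change 0.21 on the log2 scale, SE 0.09, adjusted p = 0.0892 by edgeR). Csa10g008930, with 12 counts at 5 DPA and 35 at 8 DPA, and Csa13g011780, with 30 and 93, also had all 8 DPA libraries above those of 5 DPA (adjusted p = 0.0539 and 0.0962 by edgeR). Without 5 DPA replicate 2 both were called, with log2 changes of 1.72 in place of 1.21 for Csa10g008930 (edgeR adjusted p = 0.0369) and 2.11 in place of 1.39 for Csa13g011780 (edgeR adjusted p = 0.0378). Csa13g011780 was also called by DESeq2 (adjusted p = 0.0397) and with runs summed as deposited (0.0362), and Csa11g037200 with the 6 libraries alone (0.0466) and with runs summed as deposited (0.0380). Csa05g079950, Csa08g011090 and Csa13g021450 had overlapping ages and log2 changes of 0.11 (SE 0.26), -0.10 (SE 0.29) and 0.08 (SE 0.27). Csa13g019570 and Csa19g005080 had at most 0.447 CPM in any library, with log2 changes of -1.003 (SE 0.58) and -0.06 (SE 0.52). A p that misses the threshold does not show that these levels were equal.

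Per kilobase of deposited length, the order of the factors changed below its top. Whether that length includes introns is not stated, so the order holds for the deposited lengths only. Csa04g050690, Csa11g037200 and Csa05g079950 had the highest means at 5 DPA (19.8, 11.5 and 8.47 CPM per kilobase) and at 8 DPA (23.6, 13.7 and 9.52). Csa18g003140 and Csa02g060070, at 0.542 and 0.454 CPM per kilobase at 5 DPA, stood below Csa11g072230 (2.19) and Csa08g011090 (1.97) at that age. At 8 DPA they stood at 4.79 and 4.62, above Csa11g072230 (3.96) and Csa08g011090 (1.89) and next to Csa11g015700 (5.86).

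**Figure D5:**
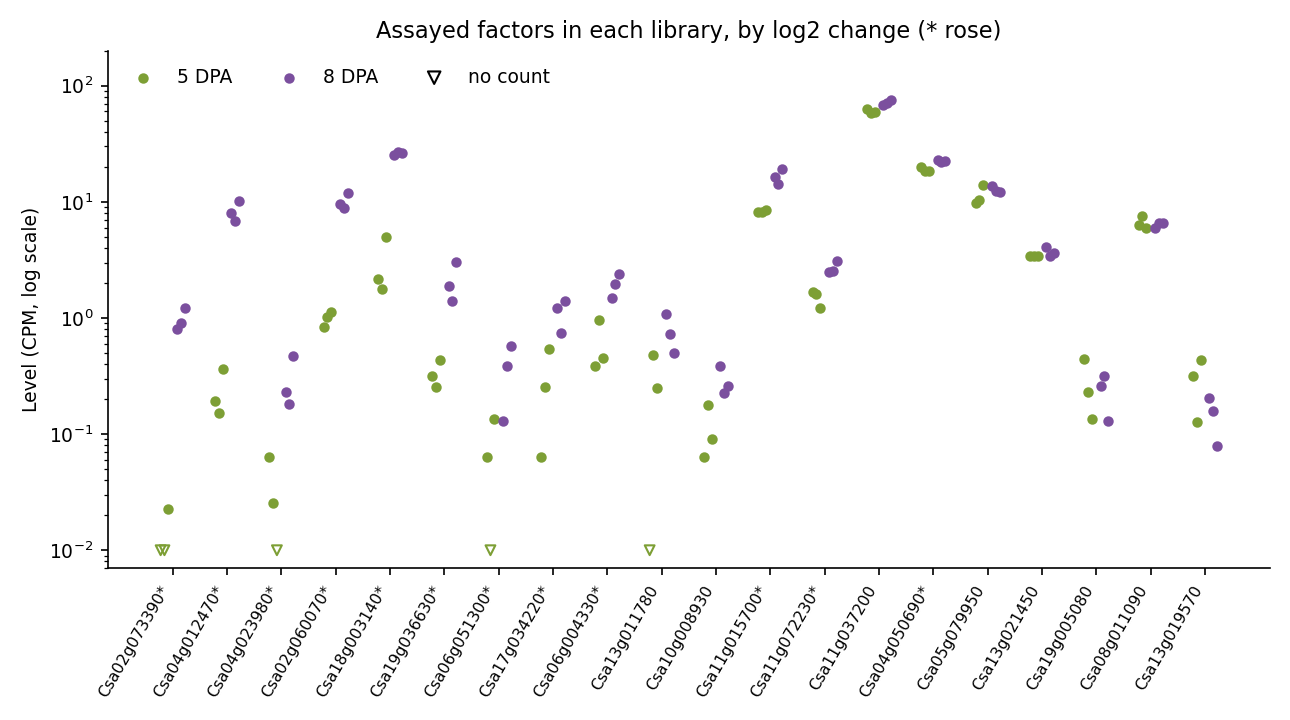
CPM on a log scale of the 20 tested factors in each of the 6 libraries, ordered by log2 change from the largest rise on the left; stars mark the 12 that rose and open triangles libraries with no count. The 8 DPA points clear the 5 DPA points in 14 of the 20 factors. Towards the right the log2 changes are small or below 0. Csa11g037200 and Csa04g050690, the most abundant at 5 DPA, changed little, yet their 8 DPA points clear those of 5 DPA.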

How the data were processed

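The authors deposited whole-number counts per gene for each sequencing run, with the gene's strand and its length in bases (another deposited column, per the file headers). HISAT2 2.0.4, Bowtie2 2.3.4.1, Trimmomatic, FastQC and bcl2fastq 2.20.0 stand without roles in the submitters' processing notes. The RNA kit marks strand, per the labels' protocols; the build, the annotation, the counting tool and how it handled strand and multiply matching reads were not given in the sources used here. Counts of near-identical gene copies are therefore uncertain. The DAP-seq peak lists were not used here.

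Both runs of a replicate were summed, except for the copied column of 5 DPA replicate 1. Over genes with at least 20 counts, its chi-square divided by the degrees of freedom was 9.39 against that replicate's own first run and 1.34 against the first run of 5 DPA replicate 2. CPM scale counts to the library total, and 3 counts correspond to 0.192 CPM in 5 DPA replicate 1 and 0.0679 to 0.0784 CPM in the other 5 libraries.

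A single fit of all 9 libraries in edgeR 4.0.16 (R 4.3.3), with filterByExpr, TMM scaling, glmQLFit and glmQLFTest, gave the contrast of 8 and 5 DPA. The filter also passes genes that are high at 11 DPA alone. The SE of a log2 change is its size over the square root of F. Relative levels per library used log2(CPM + 0.5) after TMM. The fit was also run on simulated data with known changes in a small part of the genes and the same spread for all genes and ages. The data differ from that in both respects, so the run does not measure how often calls are wrong here.

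The ranking rule for named genes takes the first 2 of each direction because the IDs pair with no name, and adds the 22 factors named in the labels. The alternatives were DESeq2 1.42.0, its size factors in edgeR, no filter, the 6 libraries alone, a replicate block, each library left out, the first run alone, runs summed as deposited and thinning to 15659011 counts. The comparison, lists and rules were chosen with earlier results of these data known. The length, neighbour and library measures were extended after seeing the data.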

Additional observations from a re-analysis of the deposited data

How the results depend on the processing

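No count of called genes moved by more than 1.5 times and no called gene of the 22436 was called in the opposite direction under any of the 14 alternatives. Called genes numbered 16457 (without 8 DPA replicate 3) to 20503 among fits that left out a library, 22754 with DESeq2, 18318 after thinning to the smallest library and 25453 with runs summed as deposited. The factors that rose numbered 9 to 14. With the replicate number as a block, 20861 genes were called, of which 20204 were shared, and 10 factors rose, with the calls of Csa04g050690 (adjusted p = 0.0594) and Csa06g051300 (0.0658) lost. Deviations of same-numbered replicates from their age means correlated at -0.0630, 0.0142 and 0.183, so the numbers are not shown to pair the samples. Neighbouring genes moved in the same direction in 58.7% to 62.1% of called pairs, and 1106 to 1612 genes of the shortest length class fell (1479 with all libraries).

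Some differences between the ages that passed no test changed sign; the cause was not tested. The share of the 10 most abundant genes was higher at 8 DPA by 0.364 percentage points, while that of the 100 most abundant was lower. The difference in genes detected (8 minus 5 DPA) was 448.3 at 5 CPM, and -474.8 to 304.2 at 1 CPM without single libraries, positive without 5 DPA replicate 2. The log2 changes of Csa08g011090 (-0.178 to 0.0214) and Csa19g005080 (-0.427 to 0.3345) also crossed 0. Depth limits the factors with under 50 counts, whose ratios rest on a few reads.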
